A study of Mus musculus with 32 samples.

Results

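The mitochondrial respiratory chain and ATP synthase are built from subunits encoded in both the nucleus and the mitochondrial genome, and the nuclear part was followed here in mouse brain tissue and in subdural CNS-associated macrophages (sdCAMs, the leptomeningeal and perivascular macrophages) after stroke. Members were all row names starting with Nduf, Uqcr, Cox4 to Cox8 or Atp5. Of the names that matched, 4 with the pseudogene ending -ps were left out, which left 95 of the 33280 rows of each table. By name and known role, 41 of the 95 were complex I subunits, 8 complex I assembly factors, 8 complex III subunits, 20 complex IV subunits and 18 ATP synthase subunits or its inhibitor. Ndufa4 and Ndufa4l2 were counted with complex IV, where NDUFA4 is now placed. After removal of genes with low summed counts, 91 members were tested in tissue and 92 in sdCAMs. Cox8c, Ndufb11b and Ndufs6b were left untested in both, and Ndufb4b in tissue only.

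Adult wild-type C57BL/6JCrl mice of both sexes received vehicle (CTL) or BLZ945, an inhibitor of the CSF1 receptor, at 200 mg per kg by gavage on 7 consecutive days, so that macrophages were lost and later repopulated. A thromboembolic stroke was set with thrombin in the middle cerebral artery 8 weeks after that, and both hemispheres were taken 1 d later. All animals therefore had a stroke, and the contralateral hemisphere of the same mouse was the comparison for the ipsilateral one. RNA was counted in a tissue slice and in sorted sdCAMs (CD45+CD11b+CD206+, without Ly6C, Ly6G and CD11c, choroid plexus removed beforehand) of each hemisphere of 4 CTL mice (A2, A3, A4, B1) and 4 BLZ945 mice (C2, C3, C4, D1), 32 libraries in all. The ipsilateral sdCAM libraries of A3 and C2, labelled as degraded, were left out, so that ipsilateral sdCAMs had 3 mice per treatment and all other groups 4.

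In textbook terms, complexes I, III and IV pass electrons from NADH to oxygen and pump protons, and ATP synthase uses the proton gradient to make ATP. Each complex holds a catalytic core and many small accessory subunits, and complex IV has tissue-restricted isoforms of several subunits (Cox4i2, Cox6a2, Cox6b2, Cox7a1, Cox8b). Brain macrophages can shift between oxidative phosphorylation and glycolysis with their activation state. The 13 subunits encoded by the mitochondrial genome were listed at 0 in every library, so the nuclear genes could not be set beside them.

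Total counts ranged from 9288700 to 12782000 in tissue and from 7397400 to 11081000 in the sdCAM libraries used. All 9 sdCAM markers (among them Mrc1, Lyve1 and Pf4) were detected, summing to between 1592 and 9382 CPM (each library's counts divided by its TMM-adjusted size) in sdCAM libraries and between 6.90 and 22.5 CPM in tissue. Microglia markers were also high in sdCAM libraries, at 7234 to 28062 CPM. Markers of other cells differed between hemispheres within the sdCAM libraries. The 7 mural cell markers summed to 795 to 4282 CPM in the 8 contralateral and 31.8 to 208 CPM in the 6 ipsilateral libraries, and the 6 endothelial markers to 503 to 1384 against 38.0 to 103 CPM, with no overlap in either. Oligodendrocyte markers summed to 668 to 6096 against 225 to 817 CPM, and the 5 choroid plexus epithelium markers to 24.5 to 37565 against 0.502 to 1512 CPM. None of these other-cell markers was at 0 throughout. The sdCAM markers themselves were lower contralaterally, at 1592 to 5806 against 4589 to 9382 CPM, and fewer genes were detected ipsilaterally, 13623 to 15144 against 15202 to 16431. In such bulk libraries, fewer cells of a type and less RNA per cell cannot be told apart.

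In tissue, the stroke did not move any member past the test in either treatment. The 95 members together took 7849 to 9513 CPM in the 8 ipsilateral and 8320 to 9050.5 CPM in the 8 contralateral slices. With edgeR's quasi-likelihood test (Benjamini-Hochberg adjusted p under 0.05), 0 of 91 members were called in CTL mice, where 0.49% of all genes were, 0 in BLZ945 mice against 1.36% of all genes, and 0 in the average of both treatments against 3.05% of all genes. At an unadjusted p under 0.05 the numbers were 0, 5 and 4 members, all lower on the ipsilateral side, which is 0%, 5.49% and 4.40% of the members where 2.13%, 4.39% and 6.24% of all genes were lower. DESeq2 called 0 members in each. The median log2 fold change of the members was 0.00 in CTL, -0.08 in BLZ945 and -0.04 in the average, with all-gene medians of -0.01, 0.00 and -0.01. Atp5f1b, the catalytic beta subunit of ATP synthase, had a log2 fold change of -0.04 ± 0.05 (SE) in the average, with a 95% interval from -0.13 to 0.05.

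The members with the lowest p in tissue, in BLZ945 mice, were Atp5f1e and Ndufaf3. Atp5f1e, the epsilon subunit of ATP synthase, was at 52.0, 49.0, 47.0 and 50.9 CPM in the ipsilateral slices of C2, C3, C4 and D1, and at 60.3, 59.4, 58.3 and 60.4 CPM in their contralateral slices. The ranges of the BLZ945 mice did not overlap, while the CTL mice gave 53.4 to 62.2 CPM ipsilaterally and 53.6 to 61.9 CPM contralaterally. Atp5f1e was picked by its low p, and the share of all genes that separated in BLZ945 tissue is not given here. Over the mice of both treatments, 0 of 91 members separated with the ipsilateral side lower, against 0.0474% of all genes. Its log2 fold change in BLZ945 mice was -0.26 ± 0.07 (SE), with an adjusted p of 0.093 by edgeR. Ndufaf3, a complex I assembly factor, was at 27.7, 33.5, 28.6 and 27.8 CPM ipsilaterally and at 35.0, 43.8, 37.9 and 33.1 CPM contralaterally in the same mice, so that C3 ipsilateral lay above D1 contralateral. Its log2 fold change was -0.35 ± 0.10 (SE), with an edgeR adjusted p of 0.11, or 0.038 with the mouse as a block, the one member call in tissue under any setting. The edgeR test of the difference between treatments called 0 members and 0% of all genes, with 2 members at an unadjusted p under 0.05 (2.20%, both with the lower ratio in BLZ945 mice, against 0.875% of all genes) and 0 called by DESeq2, and it gave Ndufaf3 -0.36 ± 0.14 (SE) with an adjusted p of 1.00.

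Single mice moved in both directions in tissue. The median ratio of ipsilateral to contralateral over the members was 0.14 in A3 and 0.08 in B1 on the log2 scale, and between -0.15 in C4 and -0.02 in D1 in the other 6 mice. No member was lower on the ipsilateral side in every mouse, where 2.87% of all genes were. For A3 the labels and the column names of the tissue table disagree on which hemisphere is which, and the labels were followed.

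In sdCAMs, nuclear oxidative phosphorylation genes were lower on the ipsilateral side, with a negative median in every complex. Of 92 members tested, 26 fell and 0 rose in the average of the treatments (edgeR, adjusted p under 0.05), where 11.2% of all 18297 genes fell. The share of members that fell, 28.3%, was above that background. The median log2 fold change of the members was -0.56 against -0.16 for all genes, and 88 of 92 were below 0. Complex IV had 10 of 19 members called and a median of -0.70, complex I 10 of 39 and -0.55, complex III 2 of 8 and -0.58, ATP synthase 3 of 18 and -0.48, and the assembly factors 1 of 8 and -0.48.

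The count depended on single mice and libraries. It was 11 with the mouse as a block, 13 without the C4 contralateral library and 0 without the 4 contralateral libraries (A4, C3, C4, D1) whose choroid plexus markers summed to over 5000 CPM, where the median of the members was -0.36 and that of all genes -0.05. Leaving out mouse A3, A4, B1, C3 or C4 gave 9, 6, 8, 7 and 7 calls. The share of all genes called in these settings is not given here, so whether the members stayed above that background is not shown.

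**Figure D1:**
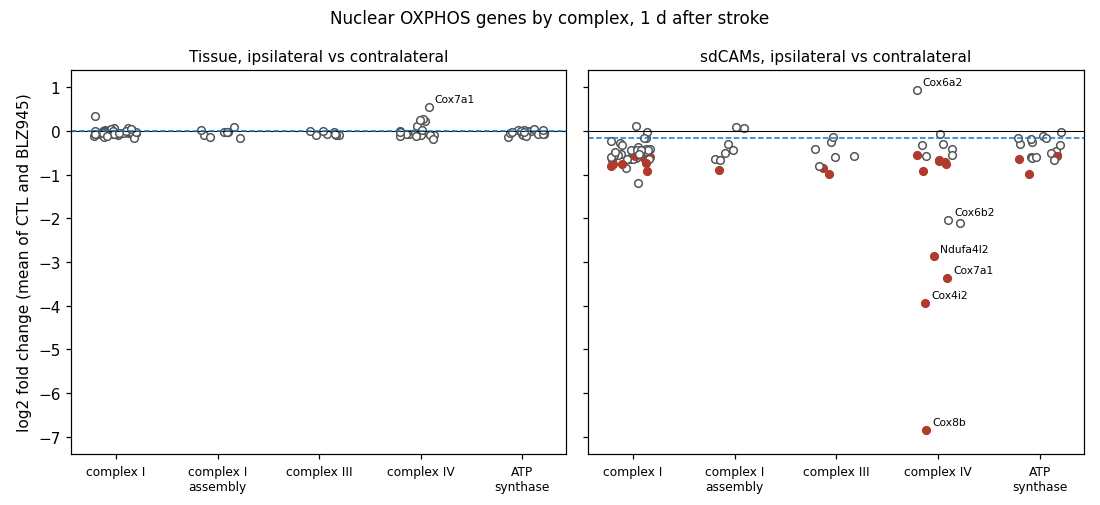
Log2 fold change (ipsilateral against contralateral, average of CTL and BLZ945) of every member tested, by complex, in tissue (left) and sdCAMs (right). Filled points passed edgeR's test at an adjusted p under 0.05, open points did not, and the dashed line is the median of all genes. No tissue member is filled, while in sdCAMs 88 of 92 lie below 0 and 26 are filled. The fitted values of Cox8b and Cox7a1 depend on the prior count, since ipsilateral counts were near 0.

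Among subunits that carry electrons, Uqcrfs1 and Ndufv1 fell, while Ndufs1, given further below, was not called. No tally of subunits that carry electrons was made. Uqcrfs1, the Rieske iron-sulfur protein of complex III, was at 132, 151, 133 and 93.4 CPM in the contralateral sdCAMs of A2, A3, A4 and B1, and at 78.3, 78.6 and 90.7 CPM in the ipsilateral sdCAMs of A2, A4 and B1. In BLZ945 mice it was at 121, 131, 223 and 118 CPM contralaterally in C2, C3, C4 and D1, and at 85.9, 66.8 and 59.0 CPM ipsilaterally in C3, C4 and D1. Every ipsilateral library lay below every contralateral one, C4 contralateral being the highest. The log2 fold change was -0.85 ± 0.18 (SE), with an adjusted p of 0.0050 by edgeR, or 0.019 with the block.

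Ndufv1, the flavoprotein of complex I that takes electrons from NADH, was at 116, 156, 146 and 103 CPM contralaterally and at 83.6, 95.5 and 71.2 CPM ipsilaterally in CTL mice. In BLZ945 mice it was at 114, 146, 190 and 112 CPM against 90.2, 60.5 and 77.5 CPM. The hemispheres again did not overlap, and the log2 fold change was -0.76 ± 0.17 (SE), with an edgeR adjusted p of 0.0067. Uqcrfs1, Ndufv1, Cox4i2, Ndufa4l2 and Cox6c stayed called with any 1 mouse left out and with the block, but not without the 4 libraries rich in choroid plexus markers, where the log2 fold changes of the first 4 were -0.69, -0.59, -3.85 and -2.39. Complete separation of ipsilateral below contralateral libraries held for 5 members (Cox4i2, Cox6c, Ndufa4l2, Ndufv1, Uqcrfs1), which is 5.43% of the 92 tested against 4.28% of all genes. In 34 of the 92 members tested (37.0%) the ipsilateral library was the lower one in all 6 mice with both hemispheres, as it was in 10.6% of all genes.

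Several other subunits and the inhibitor of ATP synthase did not pass the test. Ndufs1, the large iron-sulfur subunit of complex I, was at 82.0, 77.9, 111 and 84.5 CPM contralaterally and 110.4, 117 and 98.1 CPM ipsilaterally in CTL mice, higher on the ipsilateral side in each of A2, A4 and B1. In BLZ945 mice it was at 81.4, 121, 149.95 and 85.7 CPM against 94.9, 101 and 63.7 CPM, lower ipsilaterally in each pair. The difference between the treatments had the lowest p among members (log2 difference -0.63 ± 0.34, SE), with an edgeR adjusted p of 1.00, and the averaged log2 fold change was -0.03 ± 0.17 (SE). Atp5f1a, the alpha subunit of ATP synthase, gave -0.12 ± 0.12, Atp5f1b -0.26 ± 0.15, Uqcrc1 -0.26 ± 0.13 and Cox5a -0.29 ± 0.16 (all SE, none called). Atp5if1, which inhibits the hydrolytic activity of ATP synthase, gave -0.03 ± 0.19 (SE).

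Accessory subunits were also among the calls. Cox6c, a complex IV accessory subunit, was at 112, 187, 186 and 117 CPM contralaterally and 90.9, 83.9 and 80.1 CPM ipsilaterally in CTL mice, and at 169, 169.9, 333 and 126 CPM against 108, 101 and 83.8 CPM in BLZ945 mice. Its log2 fold change was -0.93 ± 0.21 (SE), with an edgeR adjusted p of 0.0084. Cox4i1, the ubiquitous form of subunit 4, was at 118 ± 21.1 CPM contralaterally and 77.9 ± 15.2 CPM ipsilaterally in CTL mice, and at 153 ± 75.0 against 91.7 ± 5.87 CPM in BLZ945 mice (mean ± SD, n = 4 and n = 3). By edgeR it was not called within either treatment (adjusted p of 0.29 and 0.15) and fell in the average, with a log2 fold change of -0.67 ± 0.21 (SE).

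Uqcr10 of complex III gave -0.98 ± 0.25 (SE), Atp5mk, a small ATP synthase subunit, -0.99 ± 0.27, Cox8a, the ubiquitous subunit 8, -0.70 ± 0.18, Cox7a2 -0.76 ± 0.22, Ndufa4 -0.72 ± 0.23 and Cox6a1 -0.55 ± 0.18, all called. Leaving out 1 mouse ended the call of Uqcr10 for A4, of Cox8a for A4 or C3, of Atp5mk for A4, B1, C3 or C4, of Cox7a2 and Cox4i1 for A3, A4, B1, C3 or C4, and of Ndufa4 for any mouse but C2 and D1. The call of Cox6a1 was also lost without A3, A4, B1, C2, C3 or C4, and the calls of Uqcr10, Atp5mk, Cox7a2, Cox4i1 and Cox6a1 were lost with the block. Just inside the threshold stood Ndufa1 with an edgeR adjusted p of 0.0498, and just outside it Ndufb11 with 0.053. Cox6b1 (-0.33 ± 0.18, SE) and Cox7a2l, which links complexes into supercomplexes (-0.07 ± 0.23, SE), were not called.

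**Figure D2:**
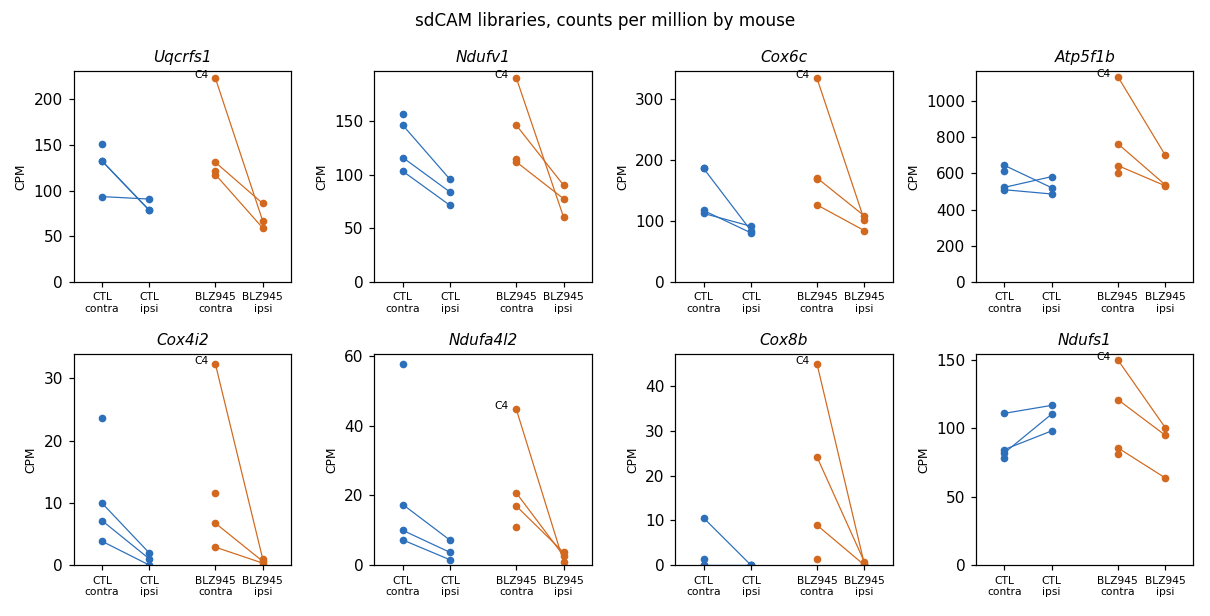
CPM of 8 members in each sdCAM library, with lines joining the hemispheres of a mouse. A3 and C2 have a contralateral point only. Uqcrfs1, Ndufv1, Cox6c, Cox4i2 and Ndufa4l2 show no overlap between hemispheres. Ndufs1 was higher ipsilaterally in the 3 CTL pairs and lower in the 3 BLZ945 pairs, and C4 contralateral is the highest BLZ945 point in every panel.

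Isoform genes of complex IV showed the widest differences. Cox4i2, the hypoxia-linked form of subunit 4 that is known from pericytes and lung, was at 7.15, 23.7, 9.96 and 3.82 CPM contralaterally and at 1.00, 1.95 and 0 CPM ipsilaterally in CTL mice. In BLZ945 mice it was at 11.5, 6.72, 32.3 and 2.87 CPM against 0.609, 1.00 and 0.309 CPM. Every ipsilateral library was lower, with a log2 fold change of -3.93 ± 0.87 (SE) and an edgeR adjusted p of 0.0070. Ndufa4l2, a paralogue of Ndufa4 also known from pericytes, was at 9.97, 57.8, 17.4 and 7.21 CPM against 3.64, 7.13 and 1.502 CPM in CTL mice and at 11.02, 16.9, 44.8 and 20.7 CPM against 3.66, 1.00 and 2.68 CPM in BLZ945 mice. Its log2 fold change was -2.87 ± 0.60 (SE), with an edgeR adjusted p of 0.0048, the lowest among members. Both genes fell together with 6 of the 7 mural cell markers (Acta2, Cspg4, Higd1b, Kcnj8, Pdgfrb, Rgs5), where 11.2% of all genes fell. Other markers fell too, 6 of 6 endothelial, 6 of 6 oligodendrocyte, 5 of 7 astrocyte and 3 of 5 choroid plexus ones. Of 9 sdCAM markers 8 rose, where 4.98% of all genes did. The part of RNA from mural and other cells in these values was not tested.

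Cox8b, a subunit 8 isoform known from heart, muscle and brown fat, was at 0, 1.26, 10.6 and 0 CPM contralaterally in A2, A3, A4 and B1, and at 1.39, 24.2, 45.0 and 8.93 CPM in C2, C3, C4 and D1. It was at 0 in the 3 ipsilateral CTL libraries and at 0.731, 0.251 and 0 CPM in those of C3, C4 and D1. In CTL mice the contralateral mean was at least 8.15-fold higher, with the ipsilateral side set to a floor of 3 counts per library, a bound that rested on A4. The averaged test was called with an edgeR adjusted p of 0.018, a call lost without mouse A4 or C4 and without the 4 libraries rich in choroid plexus markers. The 4 libraries with the most Cox8b were the same 4 whose choroid plexus markers summed to over 5000 CPM. Cox7a1, the heart and muscle form of subunit 7a, reached 7.37 CPM in C4 contralateral and at most 1.04 CPM in any ipsilateral library. In BLZ945 mice its contralateral mean was at least 11.1-fold higher, by the same floor. The averaged test gave an edgeR adjusted p of 0.043, and the call was lost with the block and when any 1 of the 8 mice was left out.

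Cox6b2, the testis form of subunit 6b, ranged from 0.218 to 37.3 CPM contralaterally and from 0.125 to 5.15 CPM ipsilaterally, with a log2 fold change of -2.04 ± 0.86 (SE) that was not called, and of 0.13 without the 4 libraries rich in choroid plexus markers. Cox6a2, the muscle form of subunit 6a, was the one isoform with a positive value, 0.95 ± 0.63 (SE), also not called. It was at 9.78, 5.19 and 5.69 CPM ipsilaterally in CTL mice and at 7.56, 8.28 and 0.309 CPM in BLZ945 mice, against 2.12 to 4.98 CPM in the contralateral libraries.

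The extent of the difference varied from mouse to mouse. The median log2 ratio over the members was -0.04 in A2, -0.67 in A4 and -0.24 in B1, and -0.44 in C3, -1.30 in C4 and -0.19 in D1. In C4, 88 of 92 members were lower ipsilaterally, in A2 55. The summed level of the members was 18317 CPM in C4 contralateral, while the other 7 contralateral libraries reached at most 10985 CPM and the 6 ipsilateral ones lay between 6769 and 8639 CPM. C4 contralateral also had the highest choroid plexus (37565 CPM) and mural cell sums (4282 CPM). The part of these other cells in the difference was not tested.

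**Figure D3:**
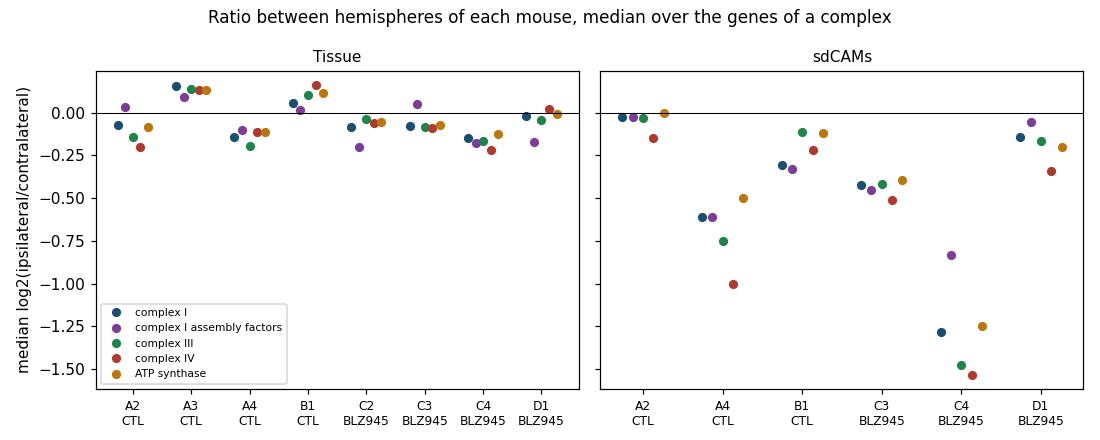
Median log2 ratio of ipsilateral to contralateral over the members of each complex, by mouse, in tissue (left) and sdCAMs (right). Tissue medians over all members lie between -0.15 and 0.14. In sdCAMs they run from -0.04 in A2 to -1.30 in C4.

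**Figure D4:**
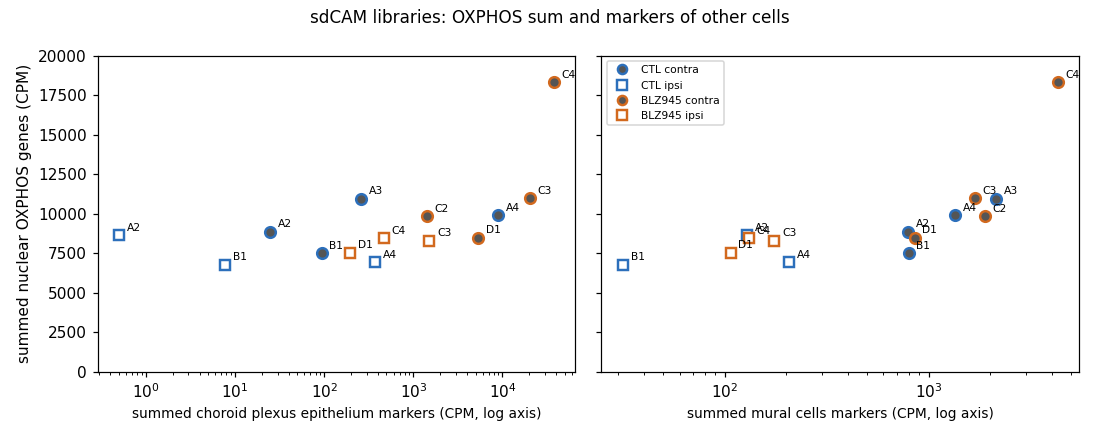
Summed CPM of the members against the summed CPM of 5 choroid plexus epithelium markers (left) and 7 mural cell markers (right) in the 14 sdCAM libraries, with log horizontal axes. C4 contralateral is highest on all 3 measures, and the mural sums of ipsilateral (at most 208) and contralateral libraries (at least 795) do not overlap.

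Transcript length differed in its median, with wide overlap, between members called and not called. By the longest annotated transcript, the 26 members that fell had a median of 859 bases (360 to 3127) and the other 63 with a length 1129 bases (390 to 6310). Among all genes with an average of at least 4 on the log2 CPM scale, genes shorter than 1000 bases had a median log2 fold change of -0.22 in sdCAMs and those of 4000 bases or more 0.26. The members shorter than 1000 bases had a median of -0.59, and those of 1000 to 2000 bases -0.44 against -0.05 for all genes of that length. Of the genes shorter than 1000 bases, 17.4% fell. In tissue, the shortest genes had a median of -0.01 and the longest -0.02. The part of transcript length in the sdCAM result was not tested.

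Within each treatment fewer members were called in sdCAMs. In CTL mice 0 of 92 members were called by edgeR, against 2.79% of all genes, with 10 members (10.9%) at an unadjusted p under 0.05, all lower, against 11.9% of all genes that were lower. DESeq2 called 3 members lower (3.26%), against 8.21% of all genes. The median log2 fold change of all 92 members was -0.48. In BLZ945 mice 3 members fell (Uqcrfs1 at -1.07 ± 0.25, Ndufa4l2 at -3.25 ± 0.86 and Ndufv1 at -0.89 ± 0.24, all SE), 3.26% of the members, against 4.41% of all genes. The median of all 92 members was -0.65, or -0.31 without the C4 contralateral library. At an unadjusted p under 0.05, 45.7% of the members were lower in BLZ945 mice, against 14.7% of all genes, and DESeq2 called 27.2% of the members lower, against 11% of all genes. No member was called without C3, C4 or D1, or without the C4 contralateral library, and the call of Ndufv1 was lost with the block (edgeR adjusted p of 0.051). The difference between treatments was tested directly, and 0 members and 0% of genes were called, with 0 members at an unadjusted p under 0.05 and 0 by DESeq2.

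Repopulation itself left no member changed past the test at 1 d after stroke. BLZ945 against CTL gave 0 calls in contralateral sdCAMs, in ipsilateral sdCAMs and in either hemisphere of the tissue, with 0% of all genes called by edgeR in each. DESeq2 also called 0 members in all 4 comparisons. At an unadjusted p under 0.05 there were 6 members in contralateral sdCAMs (all higher in BLZ945), 0 in ipsilateral sdCAMs, 1 in contralateral and 11 in ipsilateral tissue (all lower in BLZ945). In contralateral sdCAMs that is 6.52% of members against 3.34% of all genes that were higher, and in tissue 1.10% against 1.93% and 12.1% against 2.20% of all genes that were lower. In contralateral sdCAMs, 85 of 92 members were above 0 with a median log2 difference of 0.31, which was 0.02 without the C4 library. Atp5mc1, which encodes the membrane ring subunit c, had the lowest p there (0.97 ± 0.38, SE, edgeR adjusted p of 0.76). Its value leaned on C4, at 203 CPM, while C2, C3 and D1 were at 57.9, 88.4 and 58.0 CPM. The CTL libraries were at 40.6 to 62.6 CPM. In ipsilateral tissue the median was -0.10, with Atp5f1e at -0.21 ± 0.07 (SE) and an edgeR adjusted p of 0.96.

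The stroke response of the members differed between sdCAMs and tissue. In 1 model over 30 libraries, the ipsilateral against contralateral change was lower in sdCAMs than in tissue for 40 of 92 members and higher for 0, against 17.4% of all genes that were lower. The members' median difference was -0.58 on the log2 scale, that of all genes -0.27. Without the C4 contralateral library the members' median was smaller in size, as given with the processing. Called were 20 of 39 complex I subunits, 11 of 19 complex IV, 5 of 18 ATP synthase, 3 of 8 complex III members and 1 of 8 assembly factors. Markers of other cells moved with them. Lower in sdCAMs were 6 of 6 endothelial, 6 of 6 oligodendrocyte, 6 of 7 mural cell and 5 of 7 astrocyte markers, and 0 of these were higher. Of 7 microglia markers, 3 were higher and 0 lower, where 3.18% of all genes were higher. The part of other cells in this difference was not tested. Called differences of members with counts above the floor included those of Ndufa4l2 (-2.90 ± 0.59, SE) and Uqcr10 (-0.95 ± 0.25). Cox4i2 was called as well (-4.23 ± 0.82, SE). Its ipsilateral sdCAM counts were 0 in B1 and 3 in D1, so the size of its difference is uncertain. The count was 21 with the mouse as a block, 18 without the 4 libraries rich in choroid plexus markers, and 10, 15, 18, 25 and 21 without A3, A4, B1, C3 and C4. The share of all genes in these settings is not given here, so whether the members stayed above that background is not shown.

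In the contralateral hemisphere, sdCAMs and tissue differed in the make-up of the group. Of 92 members, 52 were higher in sdCAMs, against 33.2% of all genes, and 16 lower, against 39.4% of all genes. The median was 0.37, that of all genes -0.15. Size factors of DESeq2 in place of TMM moved these to 0.16 and -0.37, with 37 members higher and 18 lower, so that levels are best read relative to all genes. For that setting the shares of all genes called higher and lower are not given here. Complex I had 27 members higher and 4 lower, complex IV 10 and 5, ATP synthase 8 and 4, complex III 2 and 2, and the assembly factors 5 and 1.

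Genes higher in sdCAMs included Uqcrb, a small complex III subunit, at 103 to 269 CPM in contralateral sdCAMs and 27.6 to 35.3 CPM in contralateral tissue, each scaled within its own table. Its log2 difference was 2.07 ± 0.14 (SE). Ndufa4l2 (2.81 ± 0.41), Cox4i2 (2.45 ± 0.53), Cox8b (3.37 ± 1.01), Cox6b2 (2.19 ± 0.64) and Cox7a1 (2.11 ± 0.61, all SE) were higher as well, of which Cox8b lost its call with the block (edgeR adjusted p of 0.072). Markers of other cells moved in both directions. In sdCAMs, 4 of 7 mural cell markers were higher and 1 (Cspg4) lower, 5 of 6 endothelial and 2 of 5 choroid plexus markers were higher, and 11 of 11 neuronal, 5 of 6 oligodendrocyte and 4 of 7 astrocyte markers were lower, where 33.2% of all genes were higher and 39.4% lower. Higher in sdCAMs as well were 7 of 7 microglia, 6 of 8 neutrophil, 5 of 6 monocyte, 6 of 6 lymphocyte and 3 of 3 erythroid markers. Of these lists, 1 monocyte marker (Vcan) was lower. The part of other cells in these values was not tested. Without the 4 libraries rich in choroid plexus markers, 36 members were higher and 20 lower. How many of all genes were called in that fit is not given here, so these counts have no background. Cox8b (0.07), Cox6b2 (0.03) and Cox7a1 (1.33) were no longer called there, while Ndufa4l2 (2.33) and Cox4i2 (2.37) were. Ndufb4b and Ndufb4c, copies of Ndufb4, were at most at 9 and 6 counts per library. Ndufb4b was at 0 counts throughout contralateral tissue. Its contralateral sdCAM mean of 0.417 CPM was 1.41-fold the floor of 0.297 CPM. Its counts in contralateral sdCAM libraries went down to 1, below the floor of 3 counts, so this bound is uncertain.

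Several core subunits were lower in sdCAMs, where 39.4% of all genes were, but core subunits went both ways. Ndufs1 gave -0.73 ± 0.11 (SE), Atp5f1a -0.58 ± 0.08, Ndufv1 -0.50 ± 0.11 and Atp5f1b -0.38 ± 0.10. Ndufs8 of complex I was at 112 to 188 CPM in contralateral sdCAMs and at 74.3 to 78.6 CPM in contralateral tissue, each scaled within its own table. No tally of core subunits was made. The lowest called values were those of Cox6a2 (-1.502 ± 0.37), Ndufaf5 (-1.32 ± 0.20) and Cox5b (-0.87 ± 0.11, all SE). Length moved with this comparison too. The 52 members higher in sdCAMs had a median length of 927 bases among the 49 with a length, and the 16 lower ones 1536 bases. Among all genes the median log2 difference was 0.97 below 1000 bases and -1.09 from 4000 bases on, while members below 1000 bases had 0.50.

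**Figure D5:**
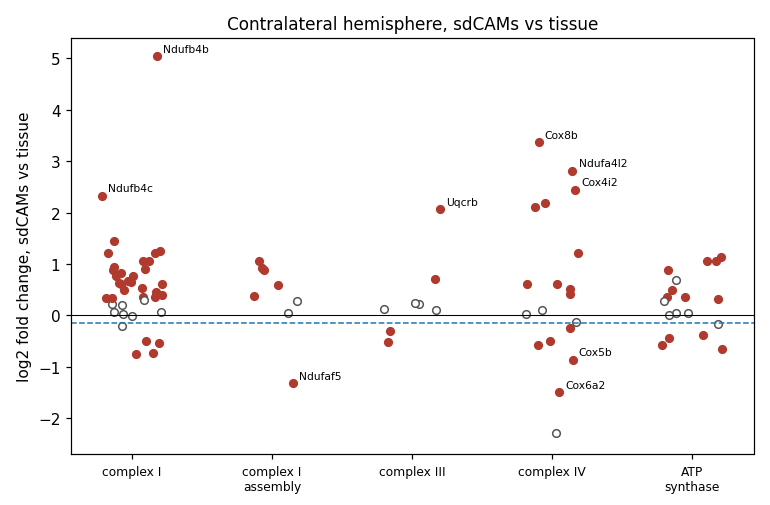
Log2 fold change of each member between contralateral sdCAMs and contralateral tissue, by complex. Filled points passed edgeR's test at an adjusted p under 0.05 and the dashed line is the median of all genes (-0.15). Complex I has 27 filled points above 0 and 4 below, while Cox6a2, Ndufaf5 and Cox5b lie lowest among the filled points. The fitted values of Ndufb4b and Ndufb4c depend on the prior count, since tissue counts were near 0.

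Other genes of the pathway gave few calls within sdCAMs, where 11.2% of all genes fell and 4.98% rose. Of 6 genes of complex II, cytochrome c and Cyc1, 0 were called in the ipsilateral against contralateral average (median -0.11), and of 16 genes of the tricarboxylic acid cycle 0 (median -0.03). Of 42 other assembly factors, 2 rose (Lrpprc, an RNA-binding protein of mitochondria, at 1.00 ± 0.20, and Coa5 at 0.54 ± 0.18, SE) and 0 fell. Of 15 transcriptional regulators, Pprc1 rose (1.07 ± 0.23, SE, edgeR adjusted p of 0.0062) and Ppargc1a, a coactivator of mitochondrial biogenesis, fell (edgeR adjusted p of 0.0041). The size of the Ppargc1a change is not given here. Ppargc1a was also called lower in contralateral sdCAMs than in contralateral tissue, and the part of other cells in its fall was not tested. In tissue, Myc rose (0.78 ± 0.18, SE, edgeR adjusted p of 0.020) and no other gene of these lists was called. Between sdCAMs and tissue of the contralateral hemisphere, 11 of 16 cycle genes were lower in sdCAMs, against 39.4% of all genes, among them Cs, citrate synthase (-0.99 ± 0.08, SE). In the same list 1 was higher, against 33.2% of all genes. Of the 6 genes of complex II, cytochrome c and Cyc1, 4 were higher, among them Sdhb (0.81 ± 0.09), and 1 was lower, Sdha (-0.64 ± 0.07). Of 42 other assembly factors 16 were higher and 13 lower, and of 15 regulators 4 were higher and 7 lower.

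Promoter sequence was read as a feature that had no part in the choice of members. Of the 95 members, 75 matched a RefSeq promoter window (GRCm38.p6, 250 bases before to 50 after the start, the first listed for a gene), older symbols included. The palindromic core of the NRF1 motif, whose letters are the capitals in the Ndufa11 line, was in 7 of the 75 (9.33%) and in 0.977% of 27025 promoters of that length. The ETS core CCGGAAG bound by GABPA, searched on both strands, was in 20% of members' and 9.12% of all windows, and the YY1 core ATGGCGG, also on both strands, in 16% and 4.19%. Members called in the sdCAM average had the NRF1 core in 9.52% and those not called in 9.26%. The 6 stretches below, each the 150 bases before the start, are shown for 2 called members with a motif (Ndufa11, Cox6a1), for Uqcrfs1 and Ndufv1, whose calls held with any 1 mouse left out, and for 2 isoform genes (Cox7a1, Cox8b). Capitals mark a motif.

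Ndufa11 (chr17:56717612-56717761, plus strand): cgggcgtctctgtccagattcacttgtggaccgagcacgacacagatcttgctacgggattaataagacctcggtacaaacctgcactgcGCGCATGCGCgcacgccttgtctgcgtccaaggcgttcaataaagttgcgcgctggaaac

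Cox6a1 (chr5:115348959-115349108, minus strand): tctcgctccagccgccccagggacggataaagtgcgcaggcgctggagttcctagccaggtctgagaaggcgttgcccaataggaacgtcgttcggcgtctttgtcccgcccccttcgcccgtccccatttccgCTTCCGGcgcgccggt

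Uqcrfs1 (chr13:30545317-30545466, minus strand): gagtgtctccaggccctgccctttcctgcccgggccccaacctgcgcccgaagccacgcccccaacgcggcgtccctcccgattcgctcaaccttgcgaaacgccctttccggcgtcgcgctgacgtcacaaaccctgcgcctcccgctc

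Ndufv1 (chr19:4012756-4012905, minus strand): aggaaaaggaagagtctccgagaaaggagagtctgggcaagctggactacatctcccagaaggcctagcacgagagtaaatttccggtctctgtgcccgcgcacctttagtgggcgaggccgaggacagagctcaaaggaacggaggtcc

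Cox7a1 (chr7:30184021-30184170, plus strand): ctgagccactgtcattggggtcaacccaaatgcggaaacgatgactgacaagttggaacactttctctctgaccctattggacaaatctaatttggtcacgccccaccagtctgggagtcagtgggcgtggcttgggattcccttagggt

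Cox8b (chr7:140900447-140900596, minus strand): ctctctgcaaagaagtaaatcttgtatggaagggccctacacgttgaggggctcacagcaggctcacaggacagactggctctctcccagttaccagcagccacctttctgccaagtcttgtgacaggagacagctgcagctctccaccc

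Ndufa11 held the NRF1 core and Cox6a1 the ETS core in reverse, within the 150 bases shown, and Cox6a1 also held the NRF1 core in the rest of its window. Uqcrfs1 and Ndufv1, among the members with the lowest p in sdCAMs, held none of the 3 cores in their windows, nor did the muscle isoforms Cox7a1 and Cox8b. CpG dinucleotides varied widely. The whole window held 31 in Uqcrfs1, 16 in Ndufv1, 25 in Ndufa11 and 32 in Cox6a1, 7 in Cox7a1 and 2 in Cox8b. Cox8b had the fewest of the 75 members, whose median was 19 against 7 over all promoters.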

How the data were processed

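The deposited tables hold raw counts per gene, made by the authors from single-end SMARTer libraries with, by the submitters' processing notes, bcl2fastq 2.20, STAR 2.7.11a, featureCounts 2.0.8 and DESeq2 1.46.0. The study's methods name GENCODE M36 with mm10 or GRCm39 and do not say which build was used here. The use of strand and the treatment of reads with several matches are not given in the sources used here, so members with near-identical copies (Ndufb4b, Ndufb4c, several Atp5 genes) have uncertain counts.

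Genes with a summed count under 8 in tissue, 7 in sdCAMs and 15 in the joint model were removed, by the study's filter. Groups of treatment and hemisphere were fitted with edgeR 4.0.16 (TMM scaling, quasi-likelihood test, R 4.3.3) in tissue, in sdCAMs and over both, and p-values were adjusted over all genes by Benjamini-Hochberg at 0.05, for 14 comparisons. SE is the absolute log2 fold change divided by the square root of F. CPM used TMM-scaled totals of each table. Per-mouse ratios used log2 CPM with a prior count of 2, and floors 3 counts per library, which cover counting error only. Alternatives were DESeq2 1.42.0, other filters and scaling, a fold threshold, the mouse as a block, and leaving out mice or libraries. Libraries of a mouse pair by animal. Their deviations from the group means had correlations of 0.21 to 0.64 in tissue and 0.05 to 0.19 in sdCAMs. Replicate libraries differed beyond sampling noise in every pair. Transcript lengths came from GENCODE vM21.

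Named members were, per comparison, the 5 called with the largest change in each direction, or the 3 with the lowest p where fewer than 5 were called, a fixed set of core and isoform genes and the ends of the range. Cox6c, Uqcrb, Ndufb11 and the promoter of Ndufa11 were added after their values were seen. Ndufa1 and Ndufs8 were also named outside that rule. Values of 1 member that the rule names are not reported here, though it stays in the counts and medians. The members and lists were chosen with earlier results of these data known.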

Additional observations from a re-analysis of the deposited data

Results flagged for a closer look

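Of 278 sets of 4 libraries examined over named members and the sums per complex, 19 held a library far from the others by Dixon's test, where chance gives about 1 in 20. In contralateral sdCAMs, C4 stood apart from the other BLZ945 libraries for Uqcrfs1 (223.1 CPM, the others 117.6 to 130.9) and Cox5b (150.0 CPM, the others 72.6 to 85.1). Among the CTL libraries, A4 stood apart for Cox8b (10.55 CPM, the others at most 1.26) and A2 for Cox6a2 (4.985 CPM, the others 2.62 to 2.95).

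In ipsilateral tissue of BLZ945 mice, C4 was low for Ndufa4 (132.8 CPM), Ndufa10 (157.5 CPM), summed ATP synthase (3039 CPM) and summed complex IV (1387 CPM). D1 was high for Cox5a (83.61 CPM) and Cox7a2l (46.95 CPM), C3 for Ndufaf3 (33.49 CPM), and C2 for Cox6b2 (6.045 CPM) and Cox8b (2.55 CPM). C2 had 4319 CPM of choroid plexus markers, the highest sum in tissue. In ipsilateral tissue of CTL mice, A2 was low for Ndufaf1 (20.22 CPM) and high for the summed assembly factors (177.3 CPM). In contralateral tissue of CTL mice, A3 was low for Atp5mc3 (199.3 CPM), summed ATP synthase (3125 CPM) and summed complex III (800.5 CPM), and A2 held Ndufb4c (0.07927 CPM) while the others were at 0.

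The change between hemispheres differed between sdCAMs and tissue by the test of the difference itself for 40 of 92 members (all lower in sdCAMs, where 17.4% of all genes were). With 1 mouse left out the number ran from 10 to 47, given without the share of all genes in those fits.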

How the results depend on the processing

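No named member that was called turned its direction. The median log2 fold change of the members stayed within 1 SD of the spread between mice in every comparison and setting, a wide measure, since several medians moved by over 1.5 times. Without the C4 contralateral library, the median went from -0.65 to -0.31 in BLZ945 sdCAMs, from 0.31 to 0.02 for BLZ945 against CTL in contralateral sdCAMs, from -0.19 to 0.10 for the difference between treatments and from -0.58 to -0.38 for sdCAMs minus tissue. Without the 4 libraries rich in choroid plexus markers it went from -0.56 to -0.36 in the sdCAM average. The number of members called moved as well, given below without the share of all genes unless stated. In the sdCAM average (26) it was 53 with DESeq2 (57.6% of members lower, against 16.5% of all genes), 3 with all 16 libraries, 13 without the C4 contralateral library and 0 without the 4 libraries rich in choroid plexus markers, and 6 to 25 with 1 mouse left out. With the mouse as a replicate block it was 11, all among the 26. In BLZ945 sdCAMs (3) it was 25 with DESeq2 (27.2%, against 11% of all genes), 6 without a filter, 0 with all 16 libraries, 0 without the C4 contralateral library, 0 without those 4 libraries, and 0 to 4 with 1 mouse left out. In CTL sdCAMs (0) DESeq2 gave 3. For the difference between sdCAMs and tissue (40) it was 24 without a filter, 9 with all 16 libraries, 18 without those 4 libraries, 21 with the block, and 10 to 47 with 1 mouse left out. Between contralateral sdCAMs and tissue (68) it was 42 with a fold threshold and 45 with all 16 libraries. In BLZ945 tissue (0) the block gave 1. The cause of these shifts was not tested, except that fewer libraries were fitted where some were left out. The 2 alternatives that leave out contralateral libraries were chosen after seeing the data. The block left the number called in the other comparisons within 1.5 times, and it could not be fitted for BLZ945 against CTL, where each mouse has 1 treatment.

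With 3 ipsilateral sdCAM mice per treatment, every member tested in both had a wider standard error in the sdCAM average than in the tissue average, and members near the floor of 3 counts could not be compared at this depth.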
